A study of Mus musculus with 6 samples.

Results

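The genes described here encode collagens and other proteins of the extracellular matrix. They were 52 genes chosen by symbol: the chains of fibrillar, basement membrane and other collagens, the enzymes and chaperone that process collagen, the proteins of elastic fibres, the small proteoglycans, the glycoproteins that bind the matrix, and the 2 PDGF receptors that mark matrix-producing cells. All 52 symbols were found in the table of 54648 symbols, and 51 had at least 1 count (Mfap4 was listed at 0 in every library). RNA-seq was performed on 3 samples of peritoneal cells from wildtype (WT) mice and 3 from FOXO3 knockout (FOXO3 KO) mice. Whether a sample pooled mice is not stated. All mice were C57BL/6, of either sex, 6 to 8 weeks old and fed standard chow, and WT and FOXO3 KO were homozygous animals identified by genotyping littermates. Every mouse had received 3% thioglycollate, an irritant that draws monocytes and macrophages into the abdominal cavity, and the cells were harvested 4 days later. The knockout was of the mice and is not described as limited to macrophages, and the harvested cells were labelled macrophages although the methods describe no sort. The study calls them mainly macrophages and reports that the few other immune cells were insignificant in its sequencing analysis.

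The extracellular matrix is the network of proteins that holds tissues together. Its commonest component, collagen, is built from 3 chains wound into a helix, which are folded in the endoplasmic reticulum with the help of the chaperone Serpinh1 (HSP47), trimmed outside the cell by proteases such as Adamts2 and crosslinked by lysyl oxidases. Fibroblasts, smooth muscle cells and the mesothelial cells that line the abdominal cavity make most of it, while macrophages are better known for degrading matrix and for making fibronectin. Foxo3 encodes a forkhead transcription factor that binds DNA.

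Library totals were between 28083393 and 36424117 counts. Levels are given as CPM (counts per 1000000, with library sizes scaled by TMM factors). The levels of all 52 genes summed to 265, 195 and 318 CPM in WT 1, 2 and 3. In FOXO3 KO 1, 2 and 3 they summed to 316, 1145 and 535 CPM. These sums overlapped between the groups, since WT 3 was above FOXO3 KO 1. Foxo3, the targeted gene, was at 117, 107 and 73.1 CPM in WT 1, 2 and 3, at 4.71 and 4.29 CPM in FOXO3 KO 1 and 3, and at 104 CPM in the library labelled FOXO3 KO 2. The Foxo3 level of that library was inside the range of WT, against its label, so the fold changes of the tested matrix genes and most counts below are given with all libraries and then without it. WT 3 also stood apart, with 6794 CPM summed over 8 genes of resident peritoneal macrophages (chosen after the data were seen) where the other libraries had between 282 and 728 CPM.

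Most tested matrix genes were higher in the libraries labelled FOXO3 KO than in WT, but no gene passed the adjusted test. In edgeR's quasi-likelihood test, 0 of the 43 matrix genes that passed the filter on low counts, and 0 of 15608 genes tested (0.0%), had a fold change over 1.5 with an FDR under 0.05, and the smallest adjusted p of any gene was 0.714. Foxo3, the targeted gene, was thus not called either. With the fold threshold kept and p left unadjusted (under 0.05), 29 of the 43 were higher in FOXO3 KO and 0 were lower. Of all 15608 genes tested, 3.28% were higher and 156 genes were lower. Lower genes were thus few in the whole table, so a count of 0 lower among 43 says little. All counts below at an unadjusted p under 0.05 keep this fold threshold. Without the library labelled FOXO3 KO 2, the adjusted test again called 0 genes, with a smallest adjusted p of 0.105. At the unadjusted threshold, 22 of 43 were higher without that library and 0 lower. Of all 16217 genes tested then, 2.71% were higher and 146 genes were lower. All 22 were among the 29. The 7 that no longer reached the threshold were Bgn, Ccdc80, Col14a1, Col5a2, Eln, Fbln1 and Pcolce. Whether more cells that make matrix or more RNA in each cell gave the higher values cannot be told apart in bulk samples, just as fewer cells of a type and less RNA per cell cannot be told apart.

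DESeq2, run as another count test, gave an adjusted p for 46 of the 52 genes. It called 18 of them higher at an adjusted p under 0.05 and a fold change over 1.5, where it called 0.916% of all genes tested higher. These 18 were Lamb1, Serpinh1, Col1a1, Fbn1, Col1a2, Adamts1, Col5a1, Col6a2, Col5a3, Col6a1, Pdgfra, Col6a3, Col12a1, Fbln2, Sparc, Plod2, Col4a2 and Loxl1. Without the library labelled FOXO3 KO 2, DESeq2 called 5 of them higher (Lamb1, Serpinh1, Col1a2, Adamts1 and Col1a1), where it called 0.377% of all genes tested higher. The study placed the same 5 of the 52 genes in a gene panel picked from these same data, so their direction there is not independent evidence. For Serpinh1 and Lamb1 the study also reported the change by qPCR in FOXO3-deficient macrophages. It does not state whether the qPCR used other mice. The folds that the study printed for the 5 genes were nearer to the fit without the library labelled FOXO3 KO 2 than to the fit with it. For Col1a1 it printed 3.6, where edgeR gave 3.64 without and 5.03 with that library. The 2 count tests thus differed on whether any matrix gene passed. With all libraries, the DESeq2 adjusted p of the 18 ran from 8.22e-06 (Lamb1) to 0.0306 (Loxl1), while the adjusted p of edgeR was 0.714 for each of them.

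The median log2 fold change of the 43 tested genes was 1.89, where that of all genes tested was -0.01. It was 0.94 without the library labelled FOXO3 KO 2. Of the 43, 41 had a higher fitted level in FOXO3 KO, and the other 2, Nid1 and Col16a1, had a lower one. Fbln1, Postn, Thbs2 and Mgp, 4 of the 43 genes, reached the filter level of 0.320 CPM in fewer than 3 WT libraries and so passed in part through FOXO3 KO libraries. For 29 genes all 3 FOXO3 KO libraries were above all 3 WT libraries, which held for 7.0% of all genes tested, and for 0 genes were they all below, which held for 5.36% of all genes tested. FOXO3 KO 1 and 3, the pair with low Foxo3, were above the 3 WT libraries for 30 genes, which held for 10.8% of all genes tested.

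**Figure D1:**
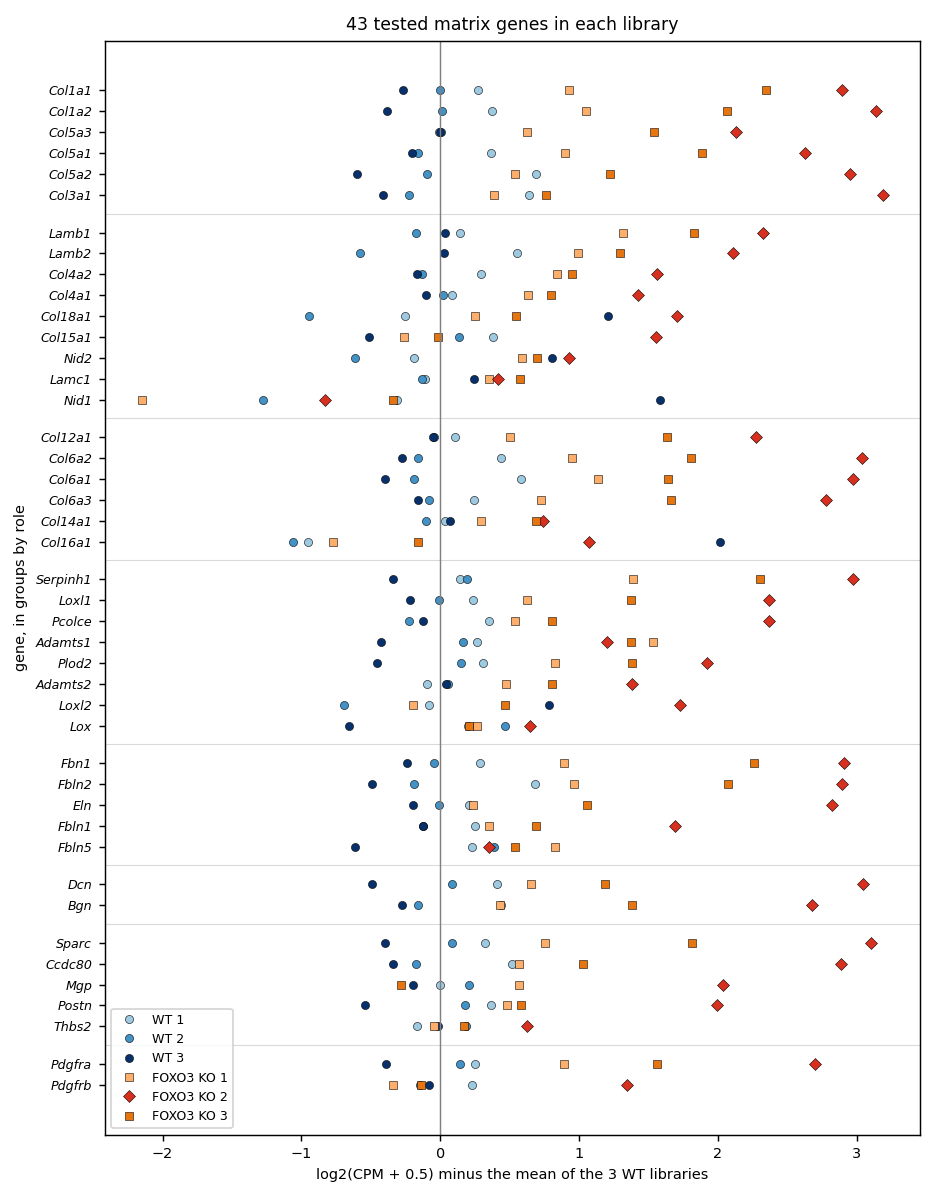
Levels of the 43 tested matrix genes, grouped by role, in each of the 6 libraries. The x axis is log2(CPM + 0.5) minus the mean of the 3 WT libraries, circles are WT, squares are FOXO3 KO 1 and 3, and the diamond is the library labelled FOXO3 KO 2, which was the highest for 38 genes.

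The order of the FOXO3 KO libraries was nearly the same from gene to gene. The library labelled FOXO3 KO 2 had the highest level for 38 of the 43 genes, which held for 10.9% of all genes tested. In 37 of the 43 genes the order within the group was FOXO3 KO 2, then FOXO3 KO 3, then FOXO3 KO 1, and FOXO3 KO 3 was above FOXO3 KO 1 in 39. The share of all genes tested with these orders was not computed. The level in the library labelled FOXO3 KO 2 was a median of 7.29 times the WT mean, and the mean of FOXO3 KO 1 and 3 was a median of 1.92 times the WT mean. Relative to the mean of FOXO3 KO 1 and 3, the library labelled FOXO3 KO 2 was over 2 times as high for 31 of the 43 genes, which held for 3.96% of all genes tested. The largest values therefore came from the library whose Foxo3 was not lowered. Within WT, WT 3 had the lowest of the 6 levels for 28 genes, and the share of all genes tested was not computed for this either. A split of the libraries by Xist, a transcript of female cells, placed WT 3 and FOXO3 KO 3 on the high side, and with this split in the model 31 of 43 genes were higher at an unadjusted p under 0.05, where 3.98% of all genes tested were higher.

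**Figure D2:**
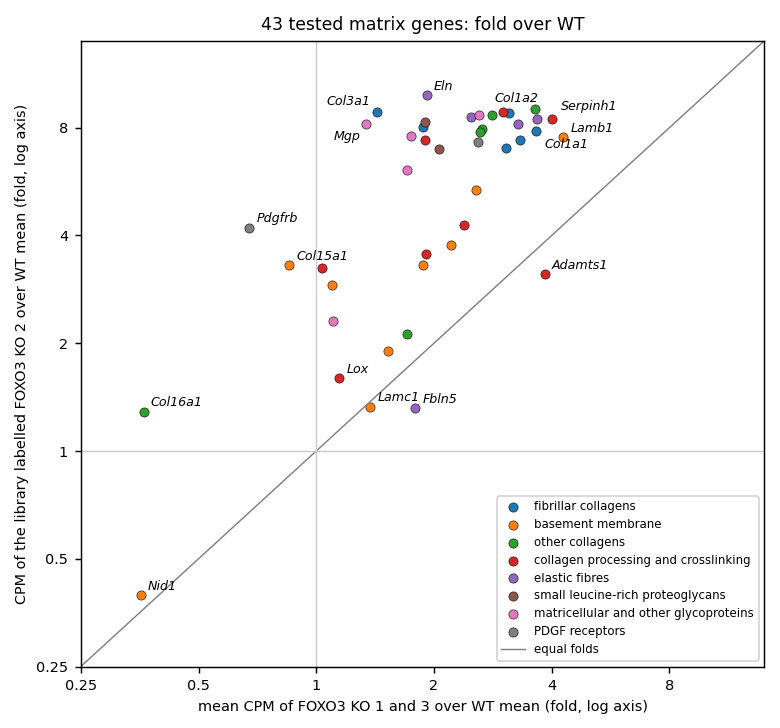
Fold over the WT mean for the 43 tested genes, with the mean of FOXO3 KO 1 and 3 on the x axis and the library labelled FOXO3 KO 2 on the y axis, both on log scales. Most genes lie above the line of equal folds, while Adamts1, Fbln5 and Lamc1 lie on its other side.

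Fibrillar collagens form the strong fibres of connective tissue. Of the 6 genes, 5 were higher at an unadjusted p under 0.05, with a median log2 fold change of 2.17, and without the library labelled FOXO3 KO 2 these were 4 and 1.63. Col1a1 and Col1a2 encode the chains of type I collagen, the main fibre of skin, bone and scar. Col1a1 was at 7.81, 6.35 and 5.20 CPM in WT 1, 2 and 3 and at 12.5, 50.4 and 34.5 CPM in FOXO3 KO 1, 2 and 3. Col1a2 was at 21.1, 16.3 and 12.2 CPM in WT and at 33.9, 146 and 69.1 CPM in FOXO3 KO. For both chains the groups did not overlap, and FOXO3 KO 1 was the lowest of its group. The log2 fold change of Col1a1 was 2.33 ± 0.50 (SE) with an adjusted p of 0.714 in edgeR and 0.00119 in DESeq2, and without the library labelled FOXO3 KO 2 it was 1.86 ± 0.46 with adjusted p values of 0.867 and 0.0492. For Col1a2 it was 2.33 ± 0.54, and 1.64 ± 0.37 without that library. Per kilobase of exon, Col1a1 was between 0.334 and 0.384 times Col1a2 in WT and between 0.312 and 0.450 times in FOXO3 KO, so the ratio of the 2 chains overlapped between groups while their levels did not.

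Type III collagen, the product of Col3a1, is found with type I in soft tissue and early scar. Col3a1 was at 29.2, 15.8 and 13.8 CPM in WT and at 24.4, 174 and 31.9 CPM in FOXO3 KO. Its groups overlapped, and only the library labelled FOXO3 KO 2 was far from WT. Its log2 fold change was 1.96 ± 0.81, and 0.52 ± 0.37 without that library. The ratio of Col1a1 to Col3a1 per kilobase of exon was between 0.251 and 0.376 in WT, 0.482 and 1.02 in FOXO3 KO 1 and 3, and 0.272 in the library labelled FOXO3 KO 2, where it was inside the range of WT. This ratio was thus lower in the library labelled FOXO3 KO 2 than in FOXO3 KO 1 and 3, which also differed from each other. Not every ratio set that library apart. Its ratio of Col6a1 to Col6a2, 1.83, was between those of FOXO3 KO 3 (1.71) and FOXO3 KO 1 (2.21).

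Type V collagen is a minor component that starts and limits the growth of type I fibres. Col5a1 was at 3.46, 2.26 and 2.18 CPM in WT and at 5.24, 18.5 and 10.9 CPM in FOXO3 KO. Col5a3 was at 0.554, 0.565 and 0.559 CPM in WT and at 1.13, 4.12 and 2.58 CPM in FOXO3 KO. Both lists of values were without overlap, with log2 fold changes of 2.13 ± 0.49 for Col5a1 and 2.22 ± 0.50 for Col5a3, and of 1.61 ± 0.42 and 1.73 ± 0.44 without the library labelled FOXO3 KO 2. Col5a2, with WT mean 3.66 ± 1.90 (SD) and FOXO3 KO mean 14.4 ± 13.2 CPM, overlapped because WT 1 was above FOXO3 KO 1. Its log2 fold change of 1.97 ± 0.74 was 0.91 ± 0.51 without the library labelled FOXO3 KO 2. Col5a2 lies next to Col3a1 on chromosome 1 of mm10, 24614 bases away on the opposite strand, and among the fibrillar collagens these 2 neighbours had the highest ratios of the library labelled FOXO3 KO 2 to the mean of FOXO3 KO 1 and 3, at 6.17 for Col3a1 and 4.30 for Col5a2. The ratio was between 2.15 and 2.83 for the other fibrillar collagens, while outside this group it was also above 4.30 for the tested genes Pdgfrb, Mgp, Eln, Dcn and Ccdc80.

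**Figure D3:**
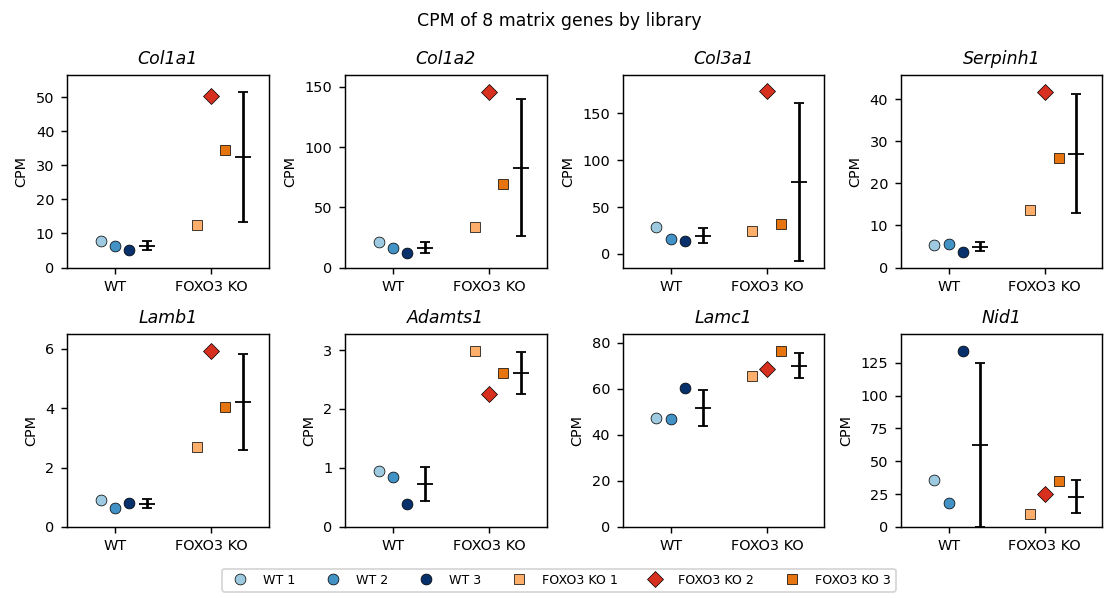
CPM of 8 matrix genes in each library, with the mean and SD of each group (bar, n = 3) beside the points. In FOXO3 KO the library labelled FOXO3 KO 2 was the highest for Col1a1, Col1a2, Col3a1, Serpinh1 and Lamb1 but not for Adamts1, Lamc1 or Nid1.

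Serpinh1 and the other genes that fold, trim and crosslink collagen were mostly higher as well. Of these 8 genes, 6 were higher at an unadjusted p under 0.05, with a median log2 fold change of 1.72, and without the library labelled FOXO3 KO 2 these were 5 and 1.09. Serpinh1, which binds newly made collagen in the endoplasmic reticulum, was at 5.43, 5.65 and 3.75 CPM in WT and at 13.6, 41.7 and 25.99 CPM in FOXO3 KO. The lowest FOXO3 KO library was more than 2 times the highest WT library. Its log2 fold change was 2.46 ± 0.43 with all libraries and 2.001 ± 0.35 without the library labelled FOXO3 KO 2, with DESeq2 adjusted p values of 4.54e-05 and 0.000792. Adamts1, a secreted protease that cuts proteoglycans, was at 0.942, 0.847 and 0.391 CPM in WT and at 2.98, 2.26 and 2.61 CPM in FOXO3 KO. It was the gene of this group for which the library labelled FOXO3 KO 2 was lowest among FOXO3 KO, and its log2 fold change of 1.85 ± 0.39 was 1.94 ± 0.45 without that library.

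The stretch of DNA before the start of a gene is where a forkhead factor and the general factors could bind, and RefSeq windows of 250 bases before to 50 bases after the start, on GRCm38 (mm10), were given for 33 of the 52 genes in 40 windows. They were searched on both strands for 4 motifs. GTAAACA, a form of the core that forkhead factors bind, was in 1 of the 40 windows (2.50%), that of Col6a1, and in 3.65% of all 32851 windows. Other forms of that core were not searched for. The other motifs bind general factors. CCAAT was in 13 (32.5%) and in 37.4% of all windows. TATAAA was in 6 (15%) and in 13.6% of all windows. GGGCGG was in 25 (62.5%) and in 35.7% of all windows. Different motifs overlap by at most 2 bases, windows of the same gene can share bases, and a match describes letters only, not binding.

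The upstream bases are shown for Serpinh1 and Adamts1, 2 of the 5 genes that DESeq2 called in both sets of libraries. They are also shown for Col3a1, whose difference came from the library labelled FOXO3 KO 2, and for Col6a1, whose window held GTAAACA. Capitals mark the motifs above, and each sequence runs 5′ to 3′ on the strand of the gene.
Serpinh1, chr7:99353240-99353489, minus strand: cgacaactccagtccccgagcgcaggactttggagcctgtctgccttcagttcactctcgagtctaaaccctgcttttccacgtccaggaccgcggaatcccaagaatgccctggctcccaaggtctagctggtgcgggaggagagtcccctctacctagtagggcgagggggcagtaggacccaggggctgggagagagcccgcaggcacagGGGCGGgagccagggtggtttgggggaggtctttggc
Adamts1, chr16:85803114-85803363, minus strand: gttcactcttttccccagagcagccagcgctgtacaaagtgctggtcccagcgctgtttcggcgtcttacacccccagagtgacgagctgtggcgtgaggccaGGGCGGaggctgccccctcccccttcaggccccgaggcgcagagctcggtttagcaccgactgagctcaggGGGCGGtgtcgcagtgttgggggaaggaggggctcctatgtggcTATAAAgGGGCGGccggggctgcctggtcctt
Col3a1, chr1:45311288-45311537, plus strand: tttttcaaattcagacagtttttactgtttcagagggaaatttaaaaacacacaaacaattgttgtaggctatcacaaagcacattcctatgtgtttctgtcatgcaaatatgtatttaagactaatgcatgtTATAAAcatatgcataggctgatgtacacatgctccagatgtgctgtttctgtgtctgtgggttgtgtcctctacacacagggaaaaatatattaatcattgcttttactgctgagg
Col6a1, chr10:76726169-76726294, minus strand: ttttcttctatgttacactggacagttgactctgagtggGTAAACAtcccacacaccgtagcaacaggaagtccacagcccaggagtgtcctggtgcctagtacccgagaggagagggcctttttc
These stretches lie outside the exons of the annotation and before the gene start. For Col6a1 the 124 bases nearest the RefSeq start are left out, because the gene in GENCODE M21 begins farther upstream, at base 76726168. Distances below are from the RefSeq start. In Adamts1, GGGCGG begins 147, 76 and 25 bases before the start and TATAAA 32 bases before it. In Serpinh1, GGGCGG begins 37 bases before the start, in Col3a1 TATAAA begins 117 bases before it, and in Col6a1 GTAAACA begins 211 bases before it.

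Plod2 hydroxylates lysines of collagen so that they can be crosslinked, and was at 2.77, 2.44 and 1.43 CPM in WT and at 4.18, 9.49 and 6.39 CPM in FOXO3 KO. Loxl1, a lysyl oxidase of elastic fibres, was at 0.720, 0.529 and 0.391 CPM in WT and at 1.098, 4.85 and 2.19 CPM in FOXO3 KO. Pcolce, which speeds the cutting of the procollagen tail, was at 1.25, 0.671 and 0.755 CPM in WT and at 1.49, 6.57 and 1.89 CPM in FOXO3 KO. None of these 3 overlapped between groups, but FOXO3 KO 1 was close to WT 1 for Pcolce. Adamts2, which cuts the procollagen head, was at 0.748, 0.882 and 0.867 CPM in WT and at 1.35, 2.96 and 1.83 CPM in FOXO3 KO. Log2 fold changes were 1.596 ± 0.40 for Plod2, 2.30 ± 0.60 for Loxl1, 1.89 ± 0.65 for Pcolce and 1.29 ± 0.36 for Adamts2. They were 1.26 ± 0.40, 1.58 ± 0.47, 0.92 ± 0.40 and 0.93 ± 0.32 without the library labelled FOXO3 KO 2. The other 2 lysyl oxidases did not separate the groups. Lox was at 2.15 ± 0.96 (SD) CPM in WT and 2.78 ± 0.56 CPM in FOXO3 KO, and Loxl2 at 4.57 ± 2.62 and 8.09 ± 5.94 CPM. Their log2 fold changes of 0.38 ± 0.41 and 0.82 ± 0.64 were 0.20 ± 0.48 and 0.05 ± 0.55 without the library labelled FOXO3 KO 2. WT 3 was 2.39 times the mean of WT 1 and 2 for Loxl2, and the log2 fold change of Loxl2 without WT 3 was 1.37 ± 0.62.

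Basement membranes are thin sheets of type IV collagen, laminins and nidogens under cell layers and around vessels. Of the 9 genes, 4 were higher at an unadjusted p under 0.05, and these were the 2 type IV collagen chains and the 2 laminin beta chains. The count was also 4 without the library labelled FOXO3 KO 2, and the median log2 fold change was 0.76 with and 0.61 without it. Lamb1, the beta 1 chain of the common laminins, was at 0.914, 0.635 and 0.811 CPM in WT and at 2.69, 5.91 and 4.05 CPM in FOXO3 KO. It had the smallest unadjusted p of the 43 genes, and the lowest FOXO3 KO library was almost 3 times the highest WT library. The log2 fold change of Lamb1 was 2.41 ± 0.37, with a DESeq2 adjusted p of 8.22e-06, and 2.09 ± 0.35 without the library labelled FOXO3 KO 2, with a DESeq2 adjusted p of 0.000325. Lamb2, the beta 2 chain, found in the kidney filter and at nerve-muscle junctions, was at 1.91, 0.600 and 1.17 CPM in WT and at 2.76, 6.57 and 3.54 CPM in FOXO3 KO, with a log2 fold change of 1.79 ± 0.53 and of 1.35 ± 0.52 without that library.

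The gamma 1 chain Lamc1 differed from the beta chains in level and in size of difference. Lamc1 was at 47.3, 46.7 and 60.5 CPM in WT and at 65.5, 68.6 and 76.2 CPM in FOXO3 KO. The groups did not overlap, yet the log2 fold change of 0.44 ± 0.14 was under the fold threshold, and it was 0.46 ± 0.17 without the library labelled FOXO3 KO 2. Per kilobase of exon, Lamb1 was between 0.0175 and 0.0252 times Lamc1 in WT and at 0.0537, 0.113 and 0.0693 times in FOXO3 KO 1, 2 and 3. Per kilobase, Lamc1 was thus far above Lamb1 in every library. The difference between their fold changes was not tested.

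Col4a1 and Col4a2, the chains of type IV collagen, lie head to head on chromosome 8, with gene starts 21 bases apart. Col4a1 was at 1.47, 1.38 and 1.23 CPM in WT and at 2.37, 4.49 and 2.73 CPM in FOXO3 KO. Col4a2 was at 1.496, 0.988 and 0.951 CPM in WT and at 2.41, 4.31 and 2.64 CPM in FOXO3 KO. Log2 fold changes were 1.23 ± 0.32 for Col4a1 and 1.44 ± 0.35 for Col4a2, and 0.91 ± 0.28 and 1.14 ± 0.34 without the library labelled FOXO3 KO 2. Per kilobase the 2 chains were nearly equal, with ratios from 0.957 to 1.36 in WT and from 0.961 to 1.02 in FOXO3 KO. Their annotated exons overlap by 22 bases on opposite strands, and strand-specific counting is not given in the sources used here.

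Nidogen 1, the product of Nid1, links laminin to type IV collagen. Nid1 was at 35.7, 18.0 and 134 CPM in WT and at 9.60, 24.7 and 34.9 CPM in FOXO3 KO. Its log2 fold change was -1.44 ± 0.82, and -1.49 ± 1.03 without the library labelled FOXO3 KO 2. WT 3 was 4.98 times the mean of WT 1 and 2 for this gene. Per kilobase of exon, Nid1 had the highest WT mean of the 52 genes, through WT 3, while in WT 1 and WT 2 it was below Lamc1 and Dcn. Col18a1 and Nid2 were also raised in WT 3, at 4.08 and 2.74 times the mean of WT 1 and 2, and their groups overlapped. The log2 fold change of Col18a1 was 0.76 ± 0.74, and 0.13 ± 0.76 without the library labelled FOXO3 KO 2, and that of Nid2 was 0.72 ± 0.47 and 0.61 ± 0.56. Without WT 3 these were 1.78 ± 0.56 for Col18a1 and 1.38 ± 0.28 for Nid2, and that of Nid1 was -0.21 ± 0.53. Leaving out both WT 3 and the library labelled FOXO3 KO 2 gave 1.14, 1.26 and -0.27. Col15a1, a collagen of muscle and vessel basement membranes, was at 1.97 ± 0.73 (SD) CPM in WT and 3.28 ± 2.79 CPM in FOXO3 KO, and its log2 fold change of 0.74 ± 0.64 was -0.23 ± 0.44 without the library labelled FOXO3 KO 2.

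Among the other collagens, 5 of the 6 tested genes were higher at an unadjusted p under 0.05, and 4 without the library labelled FOXO3 KO 2, with median log2 fold changes of 2.13 and 1.40. Type VI collagen forms beaded filaments around cells, and its 3 chains assemble together. Col6a1 was at 10.3, 5.82 and 4.98 CPM in WT and at 15.3, 55.9 and 22.0 CPM in FOXO3 KO. Col6a2 was at 6.98, 4.45 and 4.05 CPM in WT and at 10.2, 44.7 and 18.8 CPM in FOXO3 KO. Col6a3 was at 3.57, 2.75 and 2.57 CPM in WT and at 5.17, 23.0 and 10.4 CPM in FOXO3 KO. The 3 chains gave the libraries the same order and did not overlap between groups, with log2 fold changes of 2.14 ± 0.56, 2.25 ± 0.57 and 2.11 ± 0.55. Without the library labelled FOXO3 KO 2 these were 1.41 ± 0.38, 1.49 ± 0.38 and 1.39 ± 0.38. Per kilobase, Col6a1 was between 1.80 and 2.16 times Col6a2 in WT and between 1.71 and 2.21 times in FOXO3 KO, and the ratio of Col6a3 to Col6a2 also overlapped.

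Types XII and XIV collagen decorate the surface of type I fibres. Col12a1 was at 0.526, 0.423 and 0.419 CPM in WT and at 0.8504, 4.12 and 2.46 CPM in FOXO3 KO. Col14a1 was at 0.748, 0.635 and 0.783 CPM in WT and at 0.992, 1.53 and 1.47 CPM in FOXO3 KO, and its log2 fold change of 0.88 ± 0.29 was below that of Col12a1, 2.43 ± 0.59, a difference that was not tested. They were 0.77 ± 0.34 for Col14a1 and 1.85 ± 0.53 for Col12a1 without the library labelled FOXO3 KO 2. Col16a1 was one of the 2 genes with the lower level in FOXO3 KO, at -0.58 ± 1.16 on the log2 scale and -1.46 ± 1.35 without the library labelled FOXO3 KO 2. It was highest in WT 3, at 13.3 times the mean of WT 1 and 2, and its log2 fold change without WT 3 was 1.77. Col8a1, a short-chain collagen, was too low to test, at no more than 0.0730 CPM in any library.

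Elastic fibres let tissue recoil, with a core of elastin on a scaffold of fibrillin. Of the 9 genes, 5 were tested and 4 were higher at an unadjusted p under 0.05, with a median log2 fold change of 2.19. Leaving out the library labelled FOXO3 KO 2, 2 were higher (Fbn1 and Fbln2) and the median was 1.29. Eln, which encodes elastin, was at 1.27, 1.02 and 0.839 CPM in WT and at 1.31, 10.3 and 2.70 CPM in FOXO3 KO. FOXO3 KO 1 was only just above WT 1, and the log2 fold change of Eln was 2.19 ± 0.77 with and 0.94 ± 0.43 without the library labelled FOXO3 KO 2. Fbn1, fibrillin 1, was at 3.74, 2.86 and 2.43 CPM in WT and at 5.92, 25.5 and 16.1 CPM in FOXO3 KO, with a log2 fold change of 2.40 ± 0.54 and 1.87 ± 0.48 without that library. The fibulins bind elastin and basement membranes. Fbln1 was at 0.332, 0.141 and 0.140 CPM in WT and at 0.390, 1.75 and 0.630 CPM in FOXO3 KO. Fbln2 was at 3.91, 1.91 and 1.45 CPM in WT and at 4.85, 19.9 and 11.1 CPM in FOXO3 KO. Log2 fold changes were 2.13 ± 0.70 for Fbln1 and 2.30 ± 0.62 for Fbln2, and 1.29 ± 0.56 and 1.71 ± 0.57 without the library labelled FOXO3 KO 2. Fbln5 had its highest level in FOXO3 KO 1, with means of 1.11 ± 0.53 (SD) CPM in WT and 1.81 ± 0.39 CPM in FOXO3 KO, and the groups overlapped. Its log2 fold change was 0.71 ± 0.45, and 0.84 ± 0.53 without the library labelled FOXO3 KO 2. Mfap2, Mfap5 and Efemp1 were not tested for low counts.

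The small leucine-rich proteoglycans bind collagen fibres and set their spacing. Dcn, which encodes decorin, was at 14.04, 11.1 and 7.33 CPM in WT and at 16.8, 90.1 and 24.4 CPM in FOXO3 KO, and it had the highest FOXO3 KO mean of the 52 genes per kilobase of exon, through the library labelled FOXO3 KO 2. In FOXO3 KO 3, Sparc and Col1a2 were above it on that scale. Its log2 fold change was 2.01 ± 0.67, and 0.93 ± 0.33 without the library labelled FOXO3 KO 2. Bgn, biglycan, was at 3.51 ± 1.12 (SD) CPM in WT and 13.01 ± 10.3 CPM in FOXO3 KO, and FOXO3 KO 1 was just under WT 1. Its log2 fold change of 1.89 ± 0.61 was 1.05 ± 0.43 without the library labelled FOXO3 KO 2. Lum and Fmod were not tested for low counts, although Lum lies next to Dcn on chromosome 10, 46984 bases away on the same strand.

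The matricellular and other glycoproteins bind the matrix and affect how cells attach. Sparc, a collagen-binding glycoprotein, was at 15.1, 12.7 and 8.97 CPM in WT and at 20.6, 107 and 43.4 CPM in FOXO3 KO. Ccdc80, a secreted protein of fat and connective tissue, was at 9.999, 6.00 and 5.31 CPM in WT and at 10.4, 53.8 and 14.5 CPM in FOXO3 KO. Postn, periostin, was at 0.914, 0.741 and 0.252 CPM in WT and at 1.03, 3.87 and 1.14 CPM in FOXO3 KO. The groups did not overlap for these 3 genes, and for Postn and Ccdc80 the lowest FOXO3 KO library was near WT 1. Log2 fold changes were 2.21 ± 0.60 for Sparc, 1.88 ± 0.67 for Ccdc80 and 1.66 ± 0.71 for Postn, and 1.38 ± 0.38, 0.81 ± 0.35 and 0.77 ± 0.58 without the library labelled FOXO3 KO 2. Mgp, which blocks calcification, and Thbs2, a thrombospondin, overlapped between groups, with log2 fold changes of 1.85 ± 0.93 and 0.59 ± 0.45. Leaving out the library labelled FOXO3 KO 2 gave 0.42 ± 0.67 and 0.16 ± 0.45. Sparcl1 and Tnc were not tested for low counts.

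The PDGF receptors mark fibroblasts (Pdgfra) and pericytes (Pdgfrb). Pdgfra was at 3.46, 3.18 and 2.04 CPM in WT and at 5.67, 21.1 and 9.32 CPM in FOXO3 KO, without overlap, and its log2 fold change was 2.05 ± 0.52 with and 1.37 ± 0.37 without the library labelled FOXO3 KO 2. Pdgfrb was lower, at 0.451 ± 0.138 (SD) CPM in WT and 0.835 ± 0.922 CPM in FOXO3 KO, and its log2 fold change of 0.87 ± 0.81 was -0.56 ± 0.45 without that library. Per kilobase, Pdgfra was between 3.26 and 5.62 times Pdgfrb in WT and at 14.3, 6.95 and 16.2 times in FOXO3 KO 1, 2 and 3, so the ratio did not overlap between groups, although Pdgfrb rested on between 7 and 52 counts in a library.

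The other genes of matrix production were chosen as 113 genes outside the 52, of which 75 were tested. Of these, 17 were higher and 0 lower in FOXO3 KO at an unadjusted p under 0.05 and a fold change over 1.5. Of all 15608 genes tested, 3.28% were higher and 156 genes were lower. Without the library labelled FOXO3 KO 2, 78 of the 113 were tested, 15 were higher and 1 was lower (Col6a5). Of all 16217 genes tested then, 2.71% were higher and 146 genes were lower. None of the 75 passed the adjusted test in edgeR. With all libraries, DESeq2 called 8 of 80 tested higher, where it called 0.916% of all genes tested higher. Without the library labelled FOXO3 KO 2 it called 3 of 87 higher (Col24a1, Vcan and Ltbp2), where it called 0.377% of all genes tested higher. These 3 are also in the study's gene panel, so their direction is not independent evidence. In edgeR the median log2 fold change was 0.23 with and 0.23 without the library labelled FOXO3 KO 2. Col24a1, a minor fibrillar collagen, was at 0.859, 0.671 and 0.671 CPM in WT and at 2.30, 8.06 and 7.38 CPM in FOXO3 KO. The log2 fold change of Col24a1, 3.003 ± 0.52, was above that of each of the 43 tested genes, and it was 2.72 without the library labelled FOXO3 KO 2. Vcan, the large proteoglycan versican, was at 6.29, 6.42 and 9.14 CPM in WT and at 15.6, 12.3 and 21.1 CPM in FOXO3 KO, and it was lowest of its group in the library labelled FOXO3 KO 2.

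Fn1, which encodes fibronectin and is made by macrophages, was the most abundant of these genes and overlapped between groups. It was at 4022, 2712 and 8541 CPM in WT and at 5272, 5300 and 7535 CPM in FOXO3 KO, with a log2 fold change of 0.25 ± 0.49, and of 0.33 without the library labelled FOXO3 KO 2. Of the enzymes and export factors of collagen synthesis, 2 of 17 tested genes were higher at an unadjusted p under 0.05 (Fkbp10 and Bmp1), and the median log2 fold change was 0.23. These values were 2 of 17 and 0.28 without the library labelled FOXO3 KO 2. P4hb, which forms the hydroxylase of collagen prolines with P4ha chains, had a log2 fold change of 0.08 ± 0.19, and Ppib one of -0.08 ± 0.11. Of the 9 collagen receptors, 8 were tested and 3 were higher at that threshold, Ddr1, Ddr2 and Mrc2. Of 16 genes of TGF-beta and PDGF signalling, 14 were tested and 3 were higher, Tgfb3 and Pdgfb among them, and the cytokine Tgfb1 had a log2 fold change of 0.16 ± 0.20. Without the library labelled FOXO3 KO 2, 2 of the collagen receptors and 1 of the signalling genes were higher.

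The label of the cells was checked with markers of macrophages and of other cell types. All 12 macrophage markers were detected, and their summed level was between 15110 and 19860 CPM, with Lyz2 between 7746 and 11430 CPM and Adgre1 between 693 and 920 CPM. Their summed level overlapped between the groups and no macrophage marker reached an unadjusted p under 0.05 with a fold change over 1.5. Macrophage markers were abundant in every library, and the matrix genes summed to a small part of them.

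Most tested markers of the cells that line the abdominal cavity were higher in FOXO3 KO, as most matrix genes were. The 12 mesothelial markers summed to 9.002, 7.80 and 17.2 CPM in WT and to 16.1, 53.4 and 21.9 CPM in FOXO3 KO. These sums overlapped between groups, since WT 3 was above FOXO3 KO 1. Of the 10 tested, 7 were higher at an unadjusted p under 0.05, with a median log2 fold change of 2.08, and 0 were lower at that threshold. Among all 15608 genes tested, 3.28% were higher and 156 genes were lower. Of the 10, 2 had a lower fitted level in FOXO3 KO, and 2 were highest in WT 3. Of 10 tested, 6 were higher without the library labelled FOXO3 KO 2, where 2.71% of all genes were higher, and the median was 1.19. Wt1 and Krt19, which were among them, are in the study's gene panel, so their direction is not independent evidence. Wt1, a transcription factor of mesothelium, was at 1.83, 1.34 and 1.17 CPM in WT and at 3.61, 13.2 and 5.40 CPM in FOXO3 KO. The FOXO3 KO libraries fell in the same order as for most matrix genes. Msln, a defining mesothelial marker, was at no more than 0.224 CPM in any library, and Krt8 was highest in WT 3. The part of mesothelial cells in the matrix difference was not tested.

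The 8 smooth muscle and pericyte markers summed to 4.76, 3.78 and 2.77 CPM in WT and to 7.30, 19.1 and 12.3 CPM in FOXO3 KO, and 2 of the 3 tested, Acta2 and Des, were higher at an unadjusted p under 0.05, also without the library labelled FOXO3 KO 2. Myh11, the marker of mature smooth muscle, was at no more than 1.31 CPM. The 12 fibroblast markers outside the matrix genes summed to 93.1, 124 and 82.5 CPM in WT and to 167, 109 and 134 CPM in FOXO3 KO, most of it from Pdpn, which other cells also express. Of the 7 fibroblast markers tested, 2 were higher, Prrx1 and Serpinf1, and 0 without the library labelled FOXO3 KO 2, while the defining markers Dpt, Clec3b, Tcf21 and Dpep1 were at no more than 0.438 CPM in any library. The endothelial markers overlapped between groups, from 108 to 143 CPM, and the adipocyte markers summed to no more than 0.671 CPM. The part of these cells was not tested either.

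Neutrophil markers had another pattern, with sums of 205, 209 and 134 CPM in WT and 485, 216 and 414 CPM in FOXO3 KO. They were high in FOXO3 KO 1 and 3 and at the level of WT in the library labelled FOXO3 KO 2, where the matrix genes were highest. B cell markers summed to 3321 CPM in WT 3 and to between 132 and 699 CPM in the other libraries, and mast cell markers to 780 and to between 99.9 and 293 CPM. The part of neutrophils in the matrix difference was not tested. With WT 3 left out, 28 of 43 genes were higher at an unadjusted p under 0.05, where 4.5% of all genes tested were higher. Leaving out both WT 3 and the library labelled FOXO3 KO 2 gave a median log2 fold change of 1.01.

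**Figure D4:**
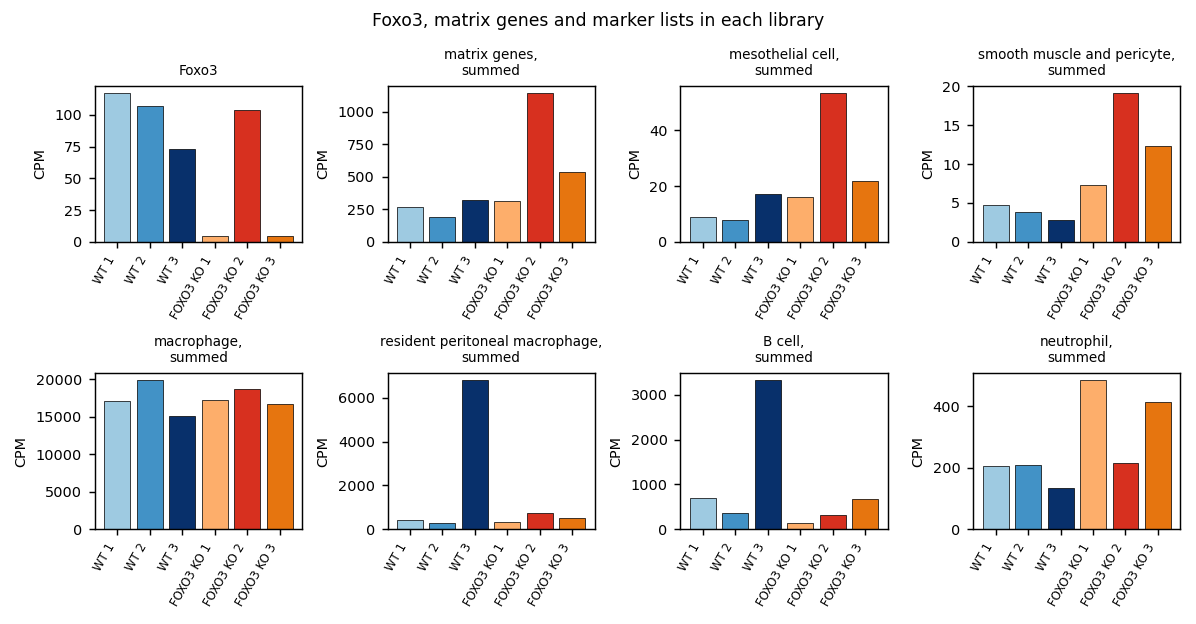
CPM of Foxo3 and summed CPM of the matrix genes and of 6 lists of cell type markers in each library, with bars from 0. The matrix, mesothelial and smooth muscle sums were highest in the library labelled FOXO3 KO 2, which has Foxo3 at 104 CPM, while resident macrophage and B cell sums were highest in WT 3.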

How the data were processed

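RNA from 3 WT and 3 FOXO3 KO samples of peritoneal cells was sequenced with paired 76 bp reads. The authors deposited estimated counts per gene symbol, without normalization; the submitters' processing notes name STAR 2.6.1d, kallisto 0.46.0, DESeq2 and mm10, with no role given, and the annotation is not given in the sources used here. Counts were rounded. All 6 libraries were fitted with edgeR 4.0.16 in R 4.3.3 (filterByExpr, TMM, glmQLFit, glmQLFTest, Benjamini-Hochberg over 15608 genes), calling at a fold change over 1.5 and FDR under 0.05. SEs were the log2 fold change over the root of the test statistic. DESeq2 1.42.0, a likelihood ratio test, limma-voom (limma 3.58.1), other factors and filters, and left-out libraries were alternatives, and the fits were tested on simulated data. Python 3.11.15 computed summaries, with a pseudocount of 0.5 for log2 levels in plots. Exon lengths and positions came from GENCODE M21. Of the 52 genes, 14 share exon bases with another annotated gene, so their reads are uncertain. The labels do not say more than that the 3 samples of a group were separate, so p-values measure the spread between these samples. The genes and lists were chosen with earlier results of these data known. Every matrix gene could be named, and every library's CPM was printed for tested genes whose groups did not overlap or whose mean reached 10 CPM.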

Additional observations from a re-analysis of the deposited data

How the results depend on the processing

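Of the 774 fold changes of single matrix genes recomputed under 18 alternatives, 725 kept their direction and side of the threshold, 37 passed the adjusted threshold where edgeR's quasi-likelihood test had not, and 12 changed sign. The main test had called 0 matrix genes, so keeping the side meant staying uncalled, and the size could still change. Col3a1, at 1.96 with all libraries and 0.52 without FOXO3 KO 2, was counted as kept. The sign changes were in 4 genes: Col15a1 (-0.23 without FOXO3 KO 2 in edgeR and in DESeq2, from -0.23 to 1.08 over left-out libraries, -0.50 without both WT 3 and FOXO3 KO 2), Pdgfrb (-0.56, -0.56, from -0.56 to 1.30, and -0.66 in the same order), Lox (-0.12 without both) and Col16a1 (0.15 with limma-voom, 0.15 with the replicate block, 0.55 with the Xist split, from -1.46 to 1.77 over left-out libraries, 0.89 without both). Genes called were 109 by the likelihood ratio test, 166 by DESeq2, 104 by DESeq2 without FOXO3 KO 2 and 4 without both WT 3 and FOXO3 KO 2. Matrix genes called were 14, 18 and 5 in the first 3 of these, and the other pathway genes 2, 8 and 3. The median log2 fold change of the matrix genes was 0.94 without FOXO3 KO 2 (from 0.94 to 2.24 over left-out libraries), 0.95 in DESeq2 without it and 1.01 without both. Over left-out libraries, the counts of matrix genes higher at an unadjusted p under 0.05 ran from 21 to 32, lower from 0 to 1 (Nid1, without WT 2), above all WT from 30 to 33, below all WT from 0 to 1 (Nid1, without WT 2), and highest in FOXO3 KO 2 from 38 to 40. Of all genes tested, 2.71% were higher without FOXO3 KO 2 and 4.5% without WT 3. Without FOXO3 KO 2, 10.8% were above all WT. Shares of all genes for the other left-out libraries are not given, so these ranges have no background beside them. Without both WT 3 and FOXO3 KO 2, 1 gene (Col15a1) was below all WT, also without a share of all genes. Counts of genes above all WT, below all WT or highest in FOXO3 KO 2 cannot fall when a library is left out, filter aside. The cause of the changes between alternatives was not tested.

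The labels do not say whether equal replicate numbers pair the samples. Deviations of same-numbered libraries correlated at 0.258, -0.0709 and 0.522, which cannot settle it because differently numbered libraries were not compared. With the number as a block, 25 matrix genes in place of 29 were higher at an unadjusted p under 0.05, 0 genes were called and the median log2 fold change was 1.63. The share of all genes tested was not computed with this block.

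The 9 untested genes had at most 35 counts in a library, so their levels are imprecise.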

Other observations

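Some matrix genes outside the 52 were higher in WT 3 than in any other library. This held for 21 of the 75 tested genes of matrix production outside the 52, and for 5810 of all 15608 genes tested. The share was thus lower among these matrix genes than among all genes, so a peak in WT 3 was not particular to them. Ltbp1, which stores latent TGF-beta in the matrix, was at 13.8, 6.60 and 515 CPM in WT 1, 2 and 3 and at 3.76, 23.3 and 5.01 CPM in FOXO3 KO 1, 2 and 3. Lama3, a laminin chain of epithelia, was at 2.16, 1.02 and 28.2 CPM in WT and at 2.13, 3.69 and 2.88 CPM in FOXO3 KO. Tgfb2 was at 22.0, 11.8 and 189 CPM in WT and at 11.0, 40.1 and 14.5 CPM in FOXO3 KO. Alox15, one of the resident macrophage genes, was at 1888 CPM in WT 3 and between 18.9 and 72.6 CPM in the other libraries. Genes over 2 times as high in WT 3 as in the mean of WT 1 and 2 were 5 of the 43 tested matrix genes and 13.6% of all genes tested.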
